A study of Homo sapiens with 9 samples.

Results

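Ribosome assembly and rRNA processing genes encode the proteins that transcribe the precursor of ribosomal RNA, cut and modify it, and fold it together with ribosomal proteins. A list of 58 such genes was followed here, out of 30017 genes counted, in human MOLM13 cells with reduced DDX41, a DEAD-box RNA helicase that is mutated in some inherited and acquired myeloid neoplasms. MOLM13 is an acute myeloid leukemia cell line with monocytic features. The members were taken by symbol and sorted into 9 classes by what their proteins do, and 58 of 58 passed the filter on low counts, their lowest count in any library being 116. Cells were transduced with a lentiviral shRNA vector that also encodes GFP, carrying a control hairpin (sh-Control) or 1 of 2 hairpins against DDX41 (Sh-DDX41_1 and Sh-DDX41_2, here shDDX41 #1 and shDDX41 #2), and GFP-positive cells were sorted 4 days later for RNA-seq. Each group held 3 libraries, lettered A, B and D. All 3 groups thus share the vector, GFP and the sort, and each knockdown group stands for a single hairpin, so the extent of DDX41 loss and the identity of the hairpin cannot be told apart.

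Ribosome assembly begins in the nucleolus. RNA polymerase I, helped by UBTF and RRN3, transcribes a long precursor onto which the small-subunit processome, built from the UTP-A and UTP-B complexes, the U3 snoRNP and many further factors, assembles while the RNA is still being made. After cleavage, pre-40S particles are completed by export and quality-control factors, while pre-60S particles pass through the PeBoW complex, a series of early assembly factors and GTPases before NMD3 takes them to the cytoplasm. Growing and dividing cells express these genes strongly, and many of them are known targets of the transcription factor MYC.

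The libraries held 16385238 to 20510032 gene counts. DDX41 itself was at 117, 115 and 113 CPM (counts scaled by library size and composition) in sh-Control, 12.2, 12.9 and 9.95 CPM with shDDX41 #1 and 38.9, 39.9 and 42.5 CPM with shDDX41 #2. The labels were thus matched by the targeted gene, with the deeper loss in shDDX41 #1. All 8 myeloid markers examined were detected, with summed levels between 2597 and 2766 CPM in the control, between 2654 and 2758 CPM in shDDX41 #1 and between 3517 and 3575 CPM in shDDX41 #2. Summed T cell and B cell markers stayed at or under 2.18 and 1.26 CPM, the 3 megakaryocyte markers at or under 0.364 CPM, and the 3 erythroid markers were at 0 in all 9 libraries. The 4 epithelial or kidney markers (EPCAM, KRT8, KRT18 and CDH1), 1 of which was at 0 in every library, together reached between 14.7 and 19.4 CPM in the control, between 16.5 and 17.8 CPM in shDDX41 #1 and between 18.0 and 19.1 CPM in shDDX41 #2. Library D of shDDX41 #1 stood apart from its replicates: over the members the median absolute log2 difference was 0.179 from A and 0.131 from B, against 0.0464 between A and B. Across 11523 genes, the deviation of that library from the mean of all 9 libraries correlated with transcript length at a Spearman coefficient of -0.310. The other 8 libraries lay between -0.131 and 0.159, with shDDX41 #1 A at 0.0271 and B at 0.0264.

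The ribosome assembly genes differed between the 2 hairpins. With shDDX41 #1, 20 members rose and 8 fell, and 30 did not pass the test (edgeR quasi-likelihood test, Benjamini-Hochberg adjusted p under 0.05 over 12712 genes, the threshold for every call below). With shDDX41 #2, 36 members fell, 22 did not pass and 0 rose. At an unadjusted p under 0.05, 1 member was higher with shDDX41 #2, and DESeq2 called 35 lower and 0 higher. Compared directly, 42 members were higher with shDDX41 #1 than with shDDX41 #2, 2 were lower (UTP20 and GNL2) and 14 did not pass. UTP20 lost that call in 7 and GNL2 in 4 of the 18 alternative fits described below. NOP14, NOC2L, RRP1B, RPF1 and MRTO4, called higher, also lost the call in some of them.

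These counts stand beside those of all genes tested. For shDDX41 #1 against sh-Control, 47.8% of all genes passed, 23.7% higher and 24.1% lower. The 28 members called, 48.3% of the list, are close to that share, and 13.8% of the list was called lower. For shDDX41 #2 against sh-Control, 25.0% of all genes passed, 11.6% higher and 13.4% lower, and 62.1% of the members were called lower. Between the hairpins, 48.8% of all genes passed, 24.6% higher with shDDX41 #1 and 24.2% lower, against 75.9% of the members in both directions. The median log2 fold change of the members was 0.08 with shDDX41 #1, -0.28 with shDDX41 #2 and 0.37 between the hairpins, while the medians over all genes were 0.01, -0.01 and 0.01. Groups did not overlap for 32, 46 and 48 members in the same order of comparisons, and for 53.1%, 43.8% and 57.7% of all genes. The members had been chosen with results of these libraries known, so the shares are descriptions. Scaling by upper quartile, which moved the median of all genes with shDDX41 #1 to 0.09, gave 27 members higher and 5 lower for shDDX41 #1. With offsets for transcript length and GC content, 35, 42 and 45 members were called in the 3 comparisons, and without shDDX41 #1 D 30, 44 and 43.

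**Figure D1:**
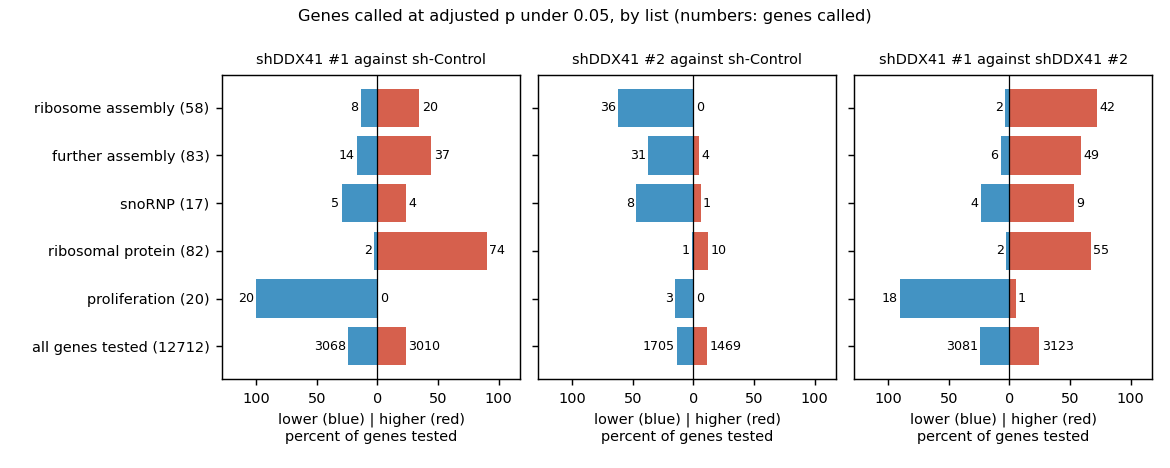
Genes called higher (red, to the right) or lower (blue, to the left) at adjusted p under 0.05, as percent of the genes tested in each list, for the 3 comparisons; list sizes are in parentheses and numbers beside the bars are genes called. Of the 58 ribosome assembly genes, 20 were higher and 8 lower with shDDX41 #1, 0 were higher and 36 lower with shDDX41 #2, and 42 were higher in shDDX41 #1 than in shDDX41 #2.

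The falls with shDDX41 #2 that passed ranged from 12.2% to 40.3% below sh-Control by the fitted fold change, from WDR43 and TSR1 at the small end to RRP15 at the large end. The lowest of the 3 group means was that of shDDX41 #2 for 49 of 58 members, that of shDDX41 #1 for TCOF1, NCL, HEATR1, UTP20, BOP1 and GNL2, and that of sh-Control for UBTF, UTP6 and NOP14. Rises with shDDX41 #1 that passed ranged from 14.3% (PNO1) to 78.1% (NOB1), and falls from 11.7% (NOC2L) to 31.3% (UTP20).

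Per library, the median over members of the log2 CPM minus the control mean was -0.03 to 0.02 in sh-Control, 0.04 to 0.17 with shDDX41 #1 and -0.27 to -0.26 with shDDX41 #2. The highest shDDX41 #1 value was that of library D. The members together took 1.24% to 1.27% of all counts in sh-Control, 1.21% to 1.28% with shDDX41 #1 and 1.058% to 1.061% with shDDX41 #2. A large part of that share came from NCL and NPM1, which held 39.8% to 40.8% of member counts in sh-Control and 34.8% to 37.9% with shDDX41 #1. Without these 2 genes the share was 0.740% to 0.767% in sh-Control, 0.786% to 0.802% with shDDX41 #1 and 0.624% to 0.637% with shDDX41 #2, and the 3 groups did not overlap. Exact two-sided permutation tests of the share without these genes gave p = 0.1 for each pair of groups, the smallest p that 3 against 3 libraries allow. For the share of all members, the same exact permutation test gave p = 0.7 for shDDX41 #1 against sh-Control and p = 0.1 for the other pairs. The members had been chosen with results of these libraries known, so these p-values are a description and not a test of the list. Neither these shares nor their permutation tests were among the planned results. In bulk RNA, fewer cells expressing a gene and less RNA per cell cannot be told apart.

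**Figure D2:**
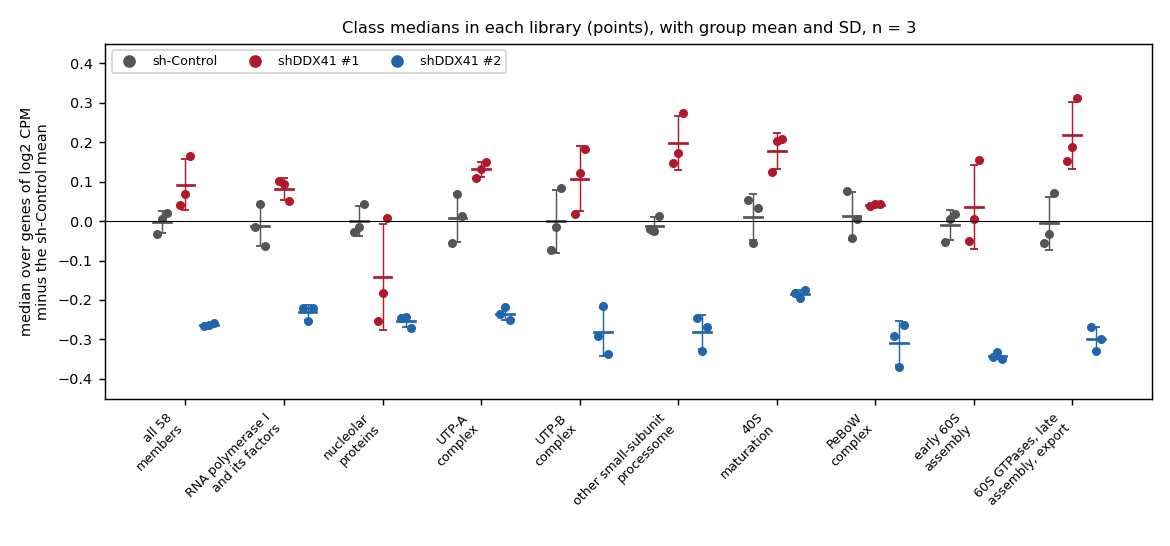
Median over the genes of each class of log2 CPM minus the sh-Control mean, 1 point per library, with group means and SD (n = 3). In shDDX41 #2 the medians of all 9 classes lay below 0 in every library; in shDDX41 #1 the nucleolar proteins were the class with the lowest mean, and library D had the highest value of 7 of the 9 classes.

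Genes of dividing cells were measured beside the members. All 20 proliferation genes fell with shDDX41 #1 (median log2 fold change -0.80), where 24.1% of all genes were called lower. With shDDX41 #2, 3 of 20 fell (median -0.12). That share of 15% is near the 13.4% of all genes called lower, so the count is not a result about these genes. MYC, the transcription factor named above, was at 403, 440.1 and 421 CPM in sh-Control, 629, 612 and 542 CPM with shDDX41 #1, and 258, 263 and 306 CPM with shDDX41 #2. Every shDDX41 #1 library was above and every shDDX41 #2 library below the whole control range of MYC. MYC rose by 0.50 ± 0.08 with shDDX41 #1 (adjusted p = 0.000111) and fell by 0.61 ± 0.08 with shDDX41 #2 (adjusted p = 6.19e-05), and the hairpins differed by 1.11 ± 0.08 (adjusted p = 4.76e-08). Of its relatives, MYCL rose with both hairpins, at 1.36 (adjusted p = 1.55e-07) and 0.71 (adjusted p = 0.000328), and MAX rose with shDDX41 #1 by 0.42 (adjusted p = 0.000143). MYCN was at 0 in all libraries. The higher myeloid marker level of shDDX41 #2 is a sum over 8 markers and does not show how many of them rose. Of the 12 markers of all cell types that were tested, 4 were called higher with shDDX41 #2 and 8 were not called. The part of MYC, of proliferation and of that summed marker level in the levels of the members was not tested.

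For 13 members the values lay above sh-Control with shDDX41 #1 and below it with shDDX41 #2, each past the threshold: POLR1B, POLR1C, UTP15, WDR43, IMP3, IMP4, PNO1, PES1, NOP2, NOP16, NIP7, NLE1 and NMD3. Among all genes tested, 1.72% had this pair of calls. Both comparisons use the same 3 control libraries, so this count is a description only. The distance between the hairpins, which the choice of these 13 members fixes in direction, ran from 0.39 (PNO1) to 0.90 (NIP7) on the log2 scale. The number of members with this pair of calls was 9 without sh-Control B, 17 without shDDX41 #1 D and 17 with offsets for transcript length and GC content, and 8 (POLR1C, IMP4, PES1, NOP2, NOP16, NIP7, NLE1 and NMD3) kept both calls in the main fit and all 18 alternative fits at the same threshold.

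**Figure D3:**
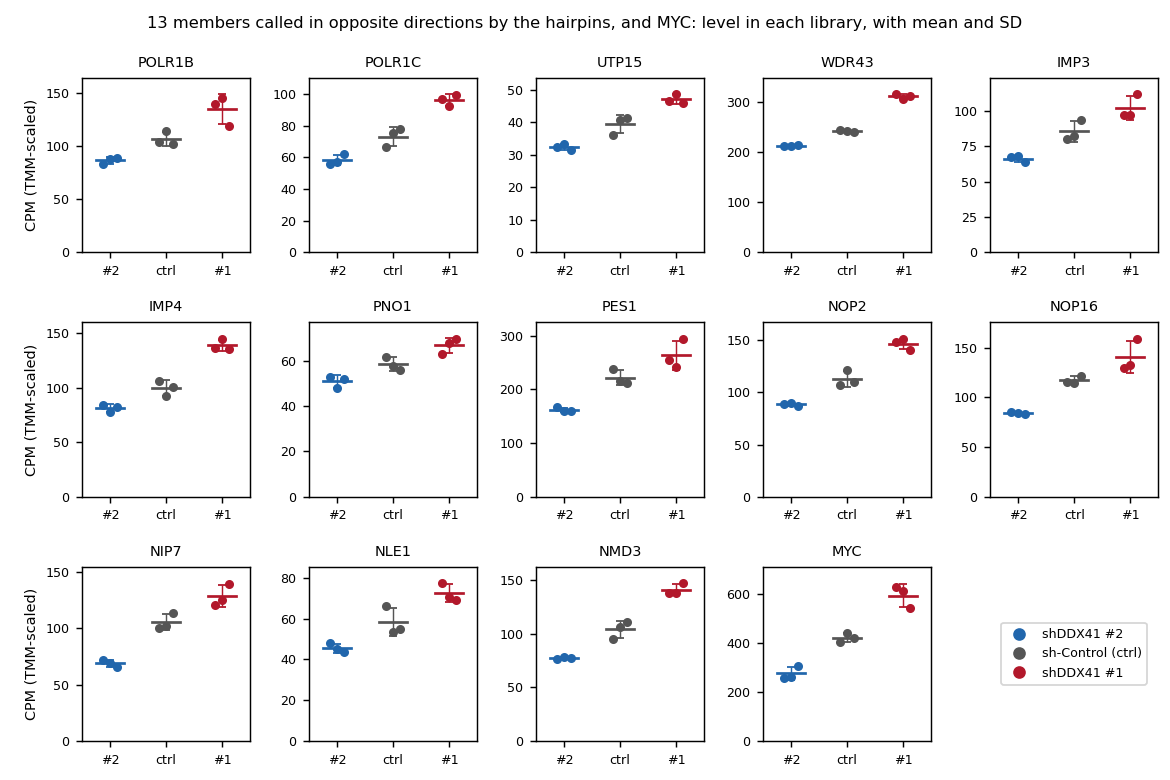
Level in CPM of the 13 members called higher with shDDX41 #1 and lower with shDDX41 #2, and of MYC, in each library (points), with group means and SD (n = 3); the vertical axes start at 0 and differ between panels. In every panel the 3 shDDX41 #2 libraries lie lowest and the 3 shDDX41 #1 libraries highest.

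The promoters of the members were read as a description only. RefSeq promoter windows on GRCh38.p14, 250 bases before to 50 after each start, were found for 50 of 58 members. The palindromic E-box CACGTG, a sequence that MYC and other factors bind, was present in 18 of 50 member promoters (36.0%), in 10.6% of the promoters of genes tested and in 7.43% of all promoters. CCGGAAG, a sequence bound by ETS factors, searched on both strands, was present in 19 of 50 (38.0%), in 20.2% and in 10.7%. A match describes the letters and not a bound site. Of the 13 members named above, 6 had the E-box (46.2%), beside 12 of the 37 other members with a window (32.4%). For CCGGAAG the counts were 4 of 13 (30.8%) and 15 of 37 (40.5%). A link between either motif and the calls was not tested. The surroundings of the E-box are shown for the 6 because they carry both the motif and the pair of calls. Each line gives the gene's strand 5′ to 3′, with the E-box in capitals.
IMP4, chr2:130342682-130342711, plus strand: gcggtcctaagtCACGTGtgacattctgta
IMP4, chr2:130342900-130342929, plus strand: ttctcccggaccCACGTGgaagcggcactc
NLE1, chr17:35142274-35142303, minus strand: ctctttctcctcCACGTGgggacgcaggat
NOP2, chr12:6568242-6568268, minus strand: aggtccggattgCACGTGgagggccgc
PES1, chr22:30591880-30591909, minus strand: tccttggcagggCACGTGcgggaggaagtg
PNO1, chr2:68157885-68157914, plus strand: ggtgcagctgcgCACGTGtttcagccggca
WDR43, chr2:28894658-28894687, plus strand: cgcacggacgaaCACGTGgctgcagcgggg
In IMP4 the motif occurred 203 bases before the listed start and again 15 bases after it, and in the other 5 genes it began 3 to 35 bases after the start.

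RNA polymerase I and its factors showed 2 rises and 1 fall with shDDX41 #1, 3 falls with shDDX41 #2, and 3 members higher in shDDX41 #1 than in shDDX41 #2, out of 7. Log2 differences against sh-Control are given with their SE. POLR1B, the second-largest subunit of RNA polymerase I, was measured at 104, 114 and 102 CPM in sh-Control, 139, 146 and 119 CPM with shDDX41 #1, and 83.3, 87.7 and 88.8 CPM with shDDX41 #2. For POLR1B the control values sat between the 2 hairpins with no library crossing over. POLR1B rose by 0.34 ± 0.08 with shDDX41 #1 (adjusted p = 0.00252) and fell by 0.30 ± 0.08 with shDDX41 #2 (adjusted p = 0.0115). Without sh-Control B or without shDDX41 #2 A, POLR1B lost its shDDX41 #2 call (adjusted p = 0.0563 to 0.0703). POLR1C, a subunit shared by RNA polymerases I and III, was measured at 66.4, 75.1 and 77.7 CPM in sh-Control, 96.8, 92.2 and 99.2 CPM with shDDX41 #1, and 55.6, 57.1 and 61.9 CPM with shDDX41 #2. The POLR1C groups were fully separated, with shDDX41 #2 lowest and shDDX41 #1 highest. POLR1C rose by 0.39 ± 0.07 with shDDX41 #1 (adjusted p = 0.000443) and fell by 0.33 ± 0.07 with shDDX41 #2 (adjusted p = 0.00488). POLR1C also hosts a snoRNA and overlaps neighbouring genes on the opposite strand, so part of its count may belong to them if reads were counted without strand. Treacle (TCOF1), a nucleolar protein needed for rDNA transcription, fell by 0.40 ± 0.09 with shDDX41 #1 (adjusted p = 0.00178) and differed by -0.19 ± 0.09 with shDDX41 #2 (adjusted p = 0.133). The related nucleolar phosphoprotein NOLC1 differed by -0.03 ± 0.06 with shDDX41 #1 (adjusted p = 0.681) and fell by 0.25 ± 0.06 with shDDX41 #2 (adjusted p = 0.00576). The remaining members were called in neither comparison: the largest subunit POLR1A (-0.03 ± 0.12 with shDDX41 #1 and -0.20 ± 0.12 with shDDX41 #2), the rDNA promoter factor UBTF (0.13 ± 0.06 with shDDX41 #1 and 0.10 ± 0.06 with shDDX41 #2) and the initiation factor RRN3 (0.00 ± 0.08 with shDDX41 #1 and -0.19 ± 0.08 with shDDX41 #2).

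The 4 nucleolar proteins differed from one another: 1 rose and 2 fell with shDDX41 #1, and 2 fell with shDDX41 #2. NCL, nucleolin, which binds the nascent pre-rRNA, was measured at 2819.5, 2818 and 2843 CPM in sh-Control, 2101, 2256 and 2478 CPM with shDDX41 #1, and 2547, 2563 and 2450.0 CPM with shDDX41 #2. For NCL both hairpins lay below all 3 control libraries. NCL fell by 0.31 ± 0.07 with shDDX41 #1 (adjusted p = 0.00183) and differed by -0.17 ± 0.07 with shDDX41 #2 (adjusted p = 0.0939). The shDDX41 #2 difference of NCL passed the threshold without shDDX41 #1 D (adjusted p = 0.0232). NPM1, nucleophosmin, a histone and ribosome chaperone often mutated in acute myeloid leukemia, was measured at 2168, 2140.4 and 2335 CPM in sh-Control, 2040.4, 2154 and 2553 CPM with shDDX41 #1, and 1747, 1878 and 1751 CPM with shDDX41 #2. The shDDX41 #1 values of NPM1 were within or across the control range and the shDDX41 #2 values below every control library. NPM1 differed by 0.02 ± 0.08 with shDDX41 #1 (adjusted p = 0.842) and fell by 0.31 ± 0.08 with shDDX41 #2 (adjusted p = 0.0131). NPM1 lost its shDDX41 #2 call when any 1 of sh-Control D, shDDX41 #2 A and shDDX41 #2 D was left out (adjusted p = 0.055 to 0.0599). The annotation holds 45 pseudogenes named after NPM1, and how reads matching several places were counted is not given in the sources used here. LYAR, a nucleolar zinc-finger protein of rRNA processing, was measured at 99.98, 104 and 101 CPM in sh-Control, 77.6, 73.6 and 85.1 CPM with shDDX41 #1, and 79.9, 76.5 and 76.7 CPM with shDDX41 #2. For LYAR both hairpins lay below all 3 control libraries. LYAR fell by 0.37 ± 0.07 with shDDX41 #1 (adjusted p = 0.000381) and fell by 0.39 ± 0.07 with shDDX41 #2 (adjusted p = 0.000721). RRP8, a nucleolar methyltransferase, was measured at 19.4, 20.5 and 22.9 CPM in sh-Control, 27.4, 26.8 and 24.4 CPM with shDDX41 #1, and 20.2, 17.6 and 20.4 CPM with shDDX41 #2. The shDDX41 #1 values of RRP8 were above every control library and the shDDX41 #2 values within or across the control range. RRP8 rose by 0.32 ± 0.10 with shDDX41 #1 (adjusted p = 0.0114) and differed by -0.12 ± 0.10 with shDDX41 #2 (adjusted p = 0.413). LYAR was therefore below sh-Control with both hairpins, and NCL had its lowest mean with shDDX41 #1.

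The UTP-A complex binds the start of the nascent pre-rRNA. Of its 4 members here, 2 rose and 1 fell with shDDX41 #1, and 3 fell with shDDX41 #2. UTP15, a WD-repeat subunit of UTP-A, was measured at 36.2, 40.8 and 41.2 CPM in sh-Control, 46.6, 48.8 and 46.0 CPM with shDDX41 #1, and 32.5, 33.3 and 31.4 CPM with shDDX41 #2. For UTP15 the control values sat between the 2 hairpins with no library crossing over. UTP15 rose by 0.26 ± 0.07 with shDDX41 #1 (adjusted p = 0.00895) and fell by 0.28 ± 0.07 with shDDX41 #2 (adjusted p = 0.0114). Without sh-Control B or without shDDX41 #2 D, UTP15 lost its shDDX41 #2 call (adjusted p = 0.0504 to 0.0536). WDR43, the human counterpart of yeast Utp5, was measured at 243, 243 and 240.0 CPM in sh-Control, 317, 307 and 312 CPM with shDDX41 #1, and 212, 212 and 215 CPM with shDDX41 #2. The WDR43 groups were fully separated, with shDDX41 #2 lowest and shDDX41 #1 highest. WDR43 rose by 0.37 ± 0.06 with shDDX41 #1 (adjusted p = 7.44e-05) and fell by 0.19 ± 0.06 with shDDX41 #2 (adjusted p = 0.0221). WDR43 lost its shDDX41 #2 call when any 1 of sh-Control B, shDDX41 #2 A, shDDX41 #2 B and shDDX41 #2 D was left out (adjusted p = 0.0646 to 0.081). WDR75, the counterpart of yeast Utp17, was measured at 92.3, 106 and 103 CPM in sh-Control, 99.0, 97.5 and 106 CPM with shDDX41 #1, and 78.3, 79.0 and 82.1 CPM with shDDX41 #2. WDR75 lay below every control library with shDDX41 #2 and within or across the control range with shDDX41 #1. WDR75 differed by 0.00 ± 0.07 with shDDX41 #1 (adjusted p = 0.98) and fell by 0.33 ± 0.07 with shDDX41 #2 (adjusted p = 0.0027). HEATR1, the large HEAT-repeat protein of the complex, fell by 0.26 ± 0.09 with shDDX41 #1 (adjusted p = 0.0232) and differed by -0.18 ± 0.09 with shDDX41 #2 (adjusted p = 0.15). HEATR1 lost its shDDX41 #1 call when any 1 of sh-Control A, sh-Control B, shDDX41 #1 A and shDDX41 #1 D was left out (adjusted p = 0.0519 to 0.107). WDR43 hosts 3 annotated snoRNAs, and HEATR1 shares exon sequence with LGALS8 on the other strand.

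The UTP-B complex joins UTP-A on the same RNA. Its 5 members lay between -0.37 and 0.17 on the log2 scale with shDDX41 #1, with adjusted p of 0.0509 or more, and 3 of them fell with shDDX41 #2. WDR3, the counterpart of yeast Utp12, was measured at 113, 124 and 126 CPM in sh-Control, 125, 144 and 137 CPM with shDDX41 #1, and 98.7, 104 and 92.0 CPM with shDDX41 #2. The shDDX41 #1 values of WDR3 were within or across the control range and the shDDX41 #2 values below every control library. WDR3 differed by 0.16 ± 0.07 with shDDX41 #1 (adjusted p = 0.0882) and fell by 0.30 ± 0.07 with shDDX41 #2 (adjusted p = 0.00897). The shDDX41 #1 difference of WDR3 passed the threshold without shDDX41 #1 A (adjusted p = 0.035). Without shDDX41 #2 D, WDR3 lost its shDDX41 #2 call (adjusted p = 0.0561). WDR36, the counterpart of yeast Utp21, was measured at 90.6, 109.1 and 107 CPM in sh-Control, 103, 111 and 104 CPM with shDDX41 #1, and 80.7, 73.0 and 80.7 CPM with shDDX41 #2. WDR36 lay below every control library with shDDX41 #2 and within or across the control range with shDDX41 #1. WDR36 differed by 0.05 ± 0.08 with shDDX41 #1 (adjusted p = 0.604) and fell by 0.39 ± 0.08 with shDDX41 #2 (adjusted p = 0.00225). With offsets for transcript length and GC content, the shDDX41 #1 difference passed for WDR36 at 0.22 (adjusted p = 0.0096) and for WDR3 at 0.26 (adjusted p = 0.00725). UTP6, a repeat-containing subunit, was measured at 131, 134 and 144 CPM in sh-Control, 144, 151 and 166 CPM with shDDX41 #1, and 149, 159 and 151 CPM with shDDX41 #2. The shDDX41 #1 values of UTP6 were within or across the control range and the shDDX41 #2 values above every control library. UTP6 differed by 0.17 ± 0.07 with shDDX41 #1 (adjusted p = 0.0509) and differed by 0.16 ± 0.07 with shDDX41 #2 (adjusted p = 0.0946). The shDDX41 #1 difference of UTP6 passed the threshold in 8 of the 18 alternative fits, among them those without sh-Control D or without shDDX41 #1 A (adjusted p = 0.0262 to 0.0337), and its adjusted p over the 18 ran from 0.00867 to 0.147. The shDDX41 #2 difference of UTP6 passed the threshold without shDDX41 #1 D (adjusted p = 0.0227). PWP2 was low throughout, at 11.3, 8.26 and 12.1 CPM in sh-Control, 9.16, 8.26 and 7.04 CPM with shDDX41 #1 and 6.54, 8.48 and 7.39 CPM with shDDX41 #2. It fell by 0.50 ± 0.16 with shDDX41 #2 (adjusted p = 0.0318), and differed by -0.37 ± 0.16 with shDDX41 #1 (adjusted p = 0.0642). PWP2 lost its shDDX41 #2 call when any 1 of sh-Control A, sh-Control D, shDDX41 #2 A and shDDX41 #2 D was left out (adjusted p = 0.0889 to 0.129). UTP18 (0.03 ± 0.08 with shDDX41 #1 and -0.09 ± 0.08 with shDDX41 #2) was called in neither comparison.

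Of the other small-subunit processome factors, 5 of 9 rose and 1 fell with shDDX41 #1. With shDDX41 #2, 5 fell, and 8 were higher and 1 lower in shDDX41 #1 than in shDDX41 #2. UTP3, also called SAS10, an early processome factor, was measured at 57.8, 63.0 and 64.2 CPM in sh-Control, 88.8, 89.4 and 101 CPM with shDDX41 #1, and 61.2, 59.6 and 59.2 CPM with shDDX41 #2. UTP3 lay within or across the control range with shDDX41 #2 and above every control library with shDDX41 #1. UTP3 rose by 0.60 ± 0.07 with shDDX41 #1 (adjusted p = 8.09e-06) and differed by -0.04 ± 0.07 with shDDX41 #2 (adjusted p = 0.73). IMP3, a partner of the U3 snoRNA that helps it pair with pre-rRNA, was measured at 80.1, 82.6 and 94.0 CPM in sh-Control, 97.3, 97.0 and 112 CPM with shDDX41 #1, and 67.4, 67.9 and 64.0 CPM with shDDX41 #2. The IMP3 groups were fully separated, with shDDX41 #2 lowest and shDDX41 #1 highest. IMP3 rose by 0.25 ± 0.08 with shDDX41 #1 (adjusted p = 0.0141) and fell by 0.37 ± 0.08 with shDDX41 #2 (adjusted p = 0.00363). Without sh-Control A, IMP3 lost its shDDX41 #1 call (adjusted p = 0.0622). IMP4, which acts with IMP3 on the same RNA pairing, was measured at 107, 92.5 and 101 CPM in sh-Control, 137, 145 and 136 CPM with shDDX41 #1, and 84.1, 77.5 and 82.8 CPM with shDDX41 #2. Every shDDX41 #1 library was above and every shDDX41 #2 library below the whole control range of IMP4. IMP4 rose by 0.48 ± 0.07 with shDDX41 #1 (adjusted p = 4.73e-05) and fell by 0.30 ± 0.07 with shDDX41 #2 (adjusted p = 0.00608). NAT10, the acetyltransferase that makes acetylcytidine in 18S rRNA, was measured at 207, 197 and 196 CPM in sh-Control, 221, 221 and 208 CPM with shDDX41 #1, and 152, 158 and 153 CPM with shDDX41 #2. For NAT10 the control values sat between the 2 hairpins with no library crossing over. NAT10 differed by 0.12 ± 0.06 with shDDX41 #1 (adjusted p = 0.118) and fell by 0.37 ± 0.06 with shDDX41 #2 (adjusted p = 0.000382). The shDDX41 #1 difference of NAT10 passed the threshold without shDDX41 #1 D (adjusted p = 0.0297). UTP20, a very large scaffold protein, fell by 0.54 ± 0.10 with shDDX41 #1 (adjusted p = 0.000461) and differed by -0.26 ± 0.10 with shDDX41 #2 (adjusted p = 0.0679). Rises with shDDX41 #1 were also called for MPHOSPH10 (0.20 ± 0.07 with shDDX41 #1 and -0.19 ± 0.07 with shDDX41 #2), the U3 partner of IMP3 and IMP4, and for NOP14 (0.20 ± 0.06 with shDDX41 #1 and 0.02 ± 0.06 with shDDX41 #2). Falls with shDDX41 #2 were also called for NOC4L (-0.02 ± 0.08 with shDDX41 #1 and -0.43 ± 0.08 with shDDX41 #2) and RRP9 (-0.01 ± 0.08 with shDDX41 #1 and -0.45 ± 0.08 with shDDX41 #2), a U3 snoRNP protein. Without sh-Control A, MPHOSPH10 lost its shDDX41 #1 call (adjusted p = 0.0824). Without sh-Control D, NOP14 lost its shDDX41 #1 call (adjusted p = 0.0532).

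**Figure D4:**
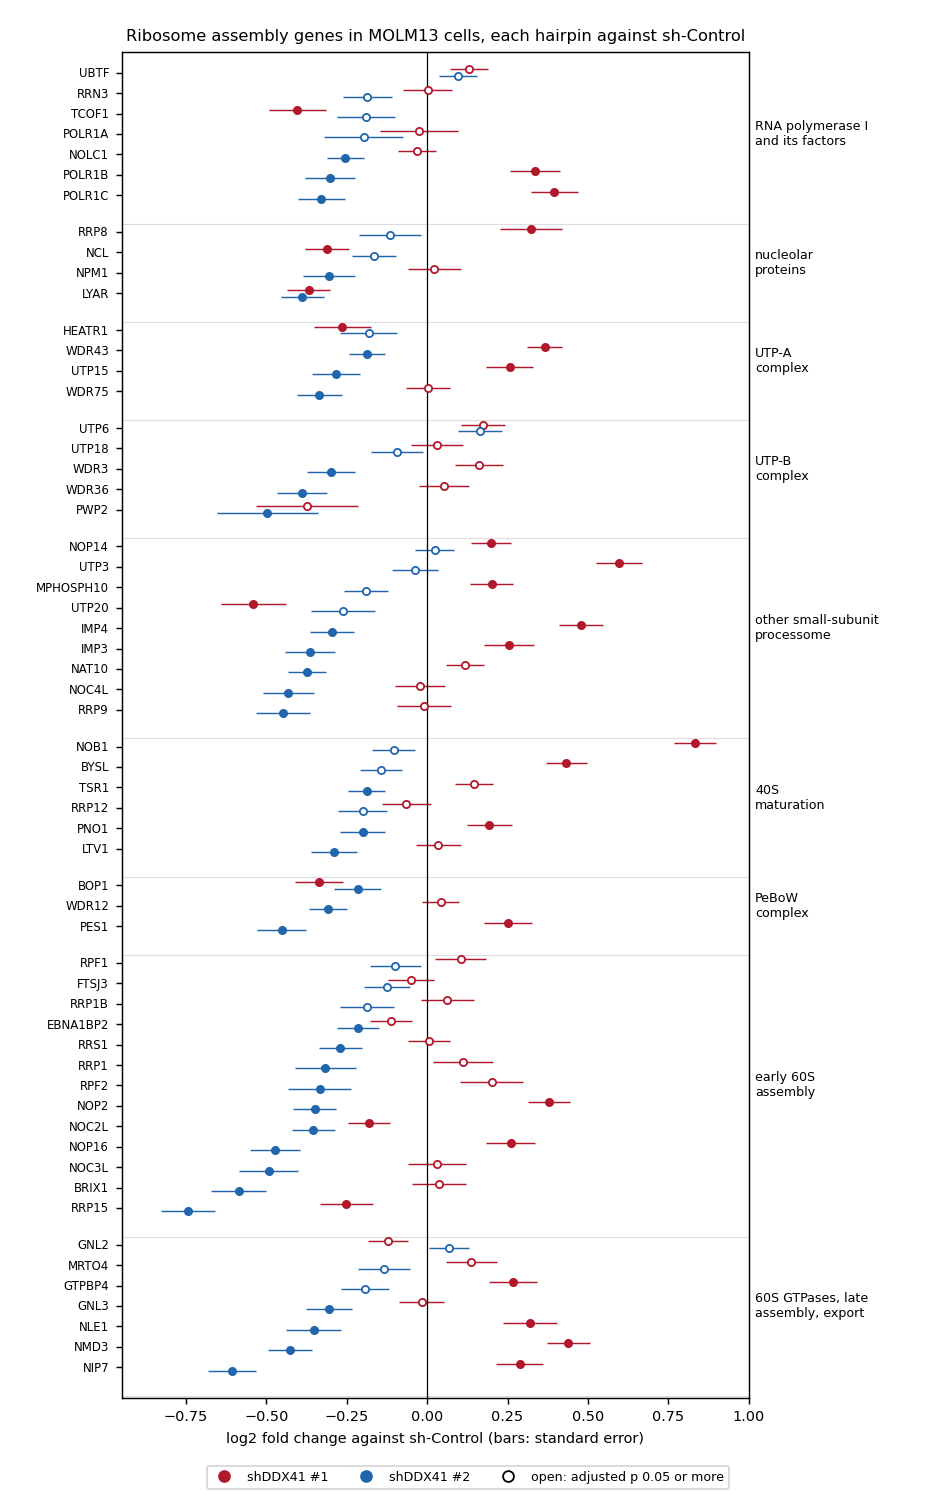
Log2 fold change against sh-Control of each of the 58 members, by class, for shDDX41 #1 (red) and shDDX41 #2 (blue), with SE as bars; filled points have an adjusted p under 0.05. Filled blue points lie to the left of 0 without exception, and filled red points lie on both sides, with NOB1 farthest to the right at 0.83 and UTP20 farthest to the left at -0.54.

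Factors that complete the 40S subunit held the largest rise of the list. Of 6 members, 3 rose with shDDX41 #1, 3 fell with shDDX41 #2, and 5 were higher in shDDX41 #1 than in shDDX41 #2. NOB1, the endonuclease that makes the final cut at the end of 18S rRNA, was measured at 112, 99.6 and 108 CPM in sh-Control, 188, 187 and 196 CPM with shDDX41 #1, and 94.6, 99.6 and 104 CPM with shDDX41 #2. NOB1 lay within or across the control range with shDDX41 #2 and above every control library with shDDX41 #1. NOB1 rose by 0.83 ± 0.07 with shDDX41 #1 (adjusted p = 1.38e-07) and differed by -0.10 ± 0.07 with shDDX41 #2 (adjusted p = 0.28). NOB1 was higher with shDDX41 #1 than with shDDX41 #2 by 0.94 ± 0.07 (adjusted p = 4.45e-08), the largest difference between the hairpins among the 58 members. NOB1 lies at chr16:69741867-69754940 on the minus strand of GRCh38. PNO1, the KH-domain protein that holds NOB1 in check, was measured at 61.8, 57.9 and 55.9 CPM in sh-Control, 63.1, 68.0 and 69.5 CPM with shDDX41 #1, and 52.9, 47.9 and 52.1 CPM with shDDX41 #2. Every shDDX41 #1 library was above and every shDDX41 #2 library below the whole control range of PNO1. PNO1 rose by 0.19 ± 0.07 with shDDX41 #1 (adjusted p = 0.0337) and fell by 0.20 ± 0.07 with shDDX41 #2 (adjusted p = 0.0495). PNO1 lost its shDDX41 #1 call in 6 of the 9 fits that left out 1 library, and kept it without sh-Control A, shDDX41 #1 A or shDDX41 #2 B (adjusted p = 0.0508 to 0.122 in the fits that lost it). PNO1 lost its shDDX41 #2 call in 7 of the 9 fits that left out 1 library, and kept it without sh-Control D or shDDX41 #1 D (adjusted p = 0.0654 to 0.203 in the fits that lost it). LTV1, a pre-40S factor released on maturation, was measured at 179.9, 198 and 203 CPM in sh-Control, 184, 194 and 217 CPM with shDDX41 #1, and 158, 159 and 158 CPM with shDDX41 #2. LTV1 lay below every control library with shDDX41 #2 and within or across the control range with shDDX41 #1. LTV1 differed by 0.03 ± 0.07 with shDDX41 #1 (adjusted p = 0.712) and fell by 0.29 ± 0.07 with shDDX41 #2 (adjusted p = 0.00846). BYSL (0.43 ± 0.06 with shDDX41 #1 and -0.14 ± 0.07 with shDDX41 #2), a pre-40S factor also called bystin, was called higher with shDDX41 #1. TSR1 (0.15 ± 0.06 with shDDX41 #1 and -0.19 ± 0.06 with shDDX41 #2), which resembles a translation GTPase, was called lower with shDDX41 #2. TSR1 lost its shDDX41 #2 call in 5 of the 9 fits that left out 1 library, and kept it without sh-Control A, shDDX41 #1 A, shDDX41 #1 B or shDDX41 #1 D (adjusted p = 0.0755 to 0.0983 in the fits that lost it). RRP12 (-0.06 ± 0.08 with shDDX41 #1 and -0.20 ± 0.08 with shDDX41 #2) was called in neither comparison.

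On the large-subunit side, the PeBoW complex of PES1, BOP1 and WDR12 acts in processing of the precursor to the large-subunit rRNAs. All 3 members fell with shDDX41 #2, and with shDDX41 #1 its subunits parted. PES1, pescadillo, was measured at 237, 215 and 213 CPM in sh-Control, 255, 242 and 294 CPM with shDDX41 #1, and 166, 159 and 160.2 CPM with shDDX41 #2. The PES1 groups were fully separated, with shDDX41 #2 lowest and shDDX41 #1 highest. PES1 rose by 0.25 ± 0.08 with shDDX41 #1 (adjusted p = 0.0127) and fell by 0.45 ± 0.08 with shDDX41 #2 (adjusted p = 0.000574). BOP1, its WD-repeat partner, was measured at 409.5, 365 and 393 CPM in sh-Control, 288, 291 and 344 CPM with shDDX41 #1, and 342, 329.6 and 333 CPM with shDDX41 #2. For BOP1 both hairpins lay below all 3 control libraries. BOP1 fell by 0.34 ± 0.07 with shDDX41 #1 (adjusted p = 0.00171) and fell by 0.22 ± 0.07 with shDDX41 #2 (adjusted p = 0.0443). BOP1 lost its shDDX41 #2 call in 7 of the 9 fits that left out 1 library, and kept it without sh-Control B or shDDX41 #1 D (adjusted p = 0.0528 to 0.136 in the fits that lost it). WDR12 was at 137, 139.6 and 139 CPM in sh-Control, 142, 143 and 143 CPM with shDDX41 #1, and 113, 107 and 115 CPM with shDDX41 #2. WDR12 fell by 0.31 ± 0.06 with shDDX41 #2 (adjusted p = 0.00153) and differed by 0.04 ± 0.06 with shDDX41 #1 (adjusted p = 0.582). With offsets for transcript length and GC content, WDR12 was also called higher with shDDX41 #1.

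Early 60S assembly factors, the largest class, gave the largest number of falls with shDDX41 #2, with 10 of 13 called, while 2 rose and 2 fell with shDDX41 #1. The share called lower with shDDX41 #2 was 76.9%, beside 100% of the PeBoW complex and 75% of UTP-A. It was 62.1% for all members and 13.4% for all genes tested. Of the 13, 11 were higher in shDDX41 #1 than in shDDX41 #2. RRP15, a nucleolar factor of pre-60S particles, was measured at 44.5, 48.9 and 53.0 CPM in sh-Control, 40.02, 38.9 and 44.2 CPM with shDDX41 #1, and 30.8, 27.5 and 29.2 CPM with shDDX41 #2. For RRP15 both hairpins lay below all 3 control libraries. RRP15 fell by 0.25 ± 0.08 with shDDX41 #1 (adjusted p = 0.0208) and fell by 0.74 ± 0.08 with shDDX41 #2 (adjusted p = 2.07e-05). RRP15 lost its shDDX41 #1 call when any 1 of sh-Control D, shDDX41 #1 A and shDDX41 #1 B was left out (adjusted p = 0.0661 to 0.0981). RRP15 (chr1:218285287-218337983, plus strand, GRCh38) had the largest fall of the list with shDDX41 #2. Its fall with shDDX41 #1 was -0.05 when offsets for transcript length and GC content were used (adjusted p = 0.649). NOP2, the methyltransferase of 28S rRNA, was measured at 107, 121 and 109.7 CPM in sh-Control, 148, 151 and 141 CPM with shDDX41 #1, and 88.7, 89.5 and 87.1 CPM with shDDX41 #2. The NOP2 groups were fully separated, with shDDX41 #2 lowest and shDDX41 #1 highest. NOP2 rose by 0.38 ± 0.07 with shDDX41 #1 (adjusted p = 0.000243) and fell by 0.35 ± 0.07 with shDDX41 #2 (adjusted p = 0.0014). NOP16, a nucleolar protein of pre-60S particles, was measured at 116, 114 and 122 CPM in sh-Control, 129.5, 133 and 159 CPM with shDDX41 #1, and 85.4, 84.4 and 83.5 CPM with shDDX41 #2. Every shDDX41 #1 library was above and every shDDX41 #2 library below the whole control range of NOP16. NOP16 rose by 0.26 ± 0.08 with shDDX41 #1 (adjusted p = 0.0109) and fell by 0.47 ± 0.08 with shDDX41 #2 (adjusted p = 0.000446). NOC2L (-0.18 ± 0.07 with shDDX41 #1 and -0.35 ± 0.07 with shDDX41 #2), a pre-60S factor, was called lower with both hairpins. NOC2L lost its shDDX41 #1 call in 7 of the 9 fits that left out 1 library, and kept it without shDDX41 #1 D or shDDX41 #2 B (adjusted p = 0.0504 to 0.137 in the fits that lost it). BRIX1, an RNA-binding assembly factor, was at 99.3, 125 and 113 CPM in sh-Control, 112, 108.6 and 126 CPM with shDDX41 #1, and 75.2, 71.2 and 78.4 CPM with shDDX41 #2. BRIX1 fell by 0.59 ± 0.09 with shDDX41 #2 (adjusted p = 0.000185) and differed by 0.04 ± 0.08 with shDDX41 #1 (adjusted p = 0.749). Falls with shDDX41 #2 were also called for NOC3L, RRS1, RPF2, RRP1 and EBNA1BP2, at log2 differences of -0.49, -0.27, -0.33, -0.32 and -0.22 in that order. RRP1 lost its shDDX41 #2 call when any 1 of sh-Control A, sh-Control D, shDDX41 #2 A and shDDX41 #2 D was left out (adjusted p = 0.0658 to 0.0967). RPF2 lost its shDDX41 #2 call when any 1 of sh-Control D, shDDX41 #2 B and shDDX41 #2 D was left out (adjusted p = 0.0753 to 0.0957). EBNA1BP2 lost its shDDX41 #2 call in 5 of the 9 fits that left out 1 library, and kept it without sh-Control A, shDDX41 #1 A, shDDX41 #1 B or shDDX41 #1 D (adjusted p = 0.0635 to 0.08 in the fits that lost it). The members RPF1 (0.10 ± 0.08 with shDDX41 #1 and -0.10 ± 0.08 with shDDX41 #2), RRP1B (0.06 ± 0.08 with shDDX41 #1 and -0.19 ± 0.08 with shDDX41 #2) and FTSJ3 (-0.05 ± 0.07 with shDDX41 #1 and -0.12 ± 0.07 with shDDX41 #2) were called in neither comparison.

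Among the 60S GTPases and the late assembly and export factors, 4 of 7 rose with shDDX41 #1, 4 fell with shDDX41 #2, and 6 were higher and 1 lower in shDDX41 #1 than in shDDX41 #2. NIP7, a small RNA-binding protein of pre-60S particles, was measured at 100.1, 102 and 113 CPM in sh-Control, 121, 125 and 139.7 CPM with shDDX41 #1, and 71.8, 69.5 and 65.9 CPM with shDDX41 #2. For NIP7 the control values sat between the 2 hairpins with no library crossing over. NIP7 rose by 0.29 ± 0.07 with shDDX41 #1 (adjusted p = 0.00465) and fell by 0.61 ± 0.07 with shDDX41 #2 (adjusted p = 4.28e-05). NIP7 lies at chr16:69337996-69343111 on the plus strand of GRCh38, and 3 pseudogenes are named after it. Between the hairpins NIP7 differed by 0.90 ± 0.07 (adjusted p = 2.38e-07). NLE1, a WD-repeat protein that couples pre-60S particles to the remodeling ATPase MDN1, was measured at 65.9, 53.3 and 55.0 CPM in sh-Control, 77.5, 70.7 and 69.3 CPM with shDDX41 #1, and 48.0, 44.98 and 43.5 CPM with shDDX41 #2. The NLE1 groups were fully separated, with shDDX41 #2 lowest and shDDX41 #1 highest. NLE1 rose by 0.32 ± 0.08 with shDDX41 #1 (adjusted p = 0.00553) and fell by 0.35 ± 0.08 with shDDX41 #2 (adjusted p = 0.00731). NMD3, the adaptor that carries the 60S subunit out of the nucleus, was measured at 95.1, 106 and 111 CPM in sh-Control, 138, 138 and 147 CPM with shDDX41 #1, and 76.7, 77.9 and 77.6 CPM with shDDX41 #2. Every shDDX41 #1 library was above and every shDDX41 #2 library below the whole control range of NMD3. NMD3 rose by 0.44 ± 0.07 with shDDX41 #1 (adjusted p = 9.27e-05) and fell by 0.43 ± 0.07 with shDDX41 #2 (adjusted p = 0.000416). Between the hairpins NMD3 differed by 0.87 ± 0.07 (adjusted p = 1.42e-07). The GTPase GTPBP4 (0.27 ± 0.07 with shDDX41 #1 and -0.19 ± 0.07 with shDDX41 #2), also called NOG1, was called higher with shDDX41 #1, and the GTPase GNL3 (-0.02 ± 0.07 with shDDX41 #1 and -0.31 ± 0.07 with shDDX41 #2), nucleostemin, which hosts several snoRNAs, was called lower with shDDX41 #2. The GTPase GNL2 (-0.12 ± 0.06 with shDDX41 #1 and 0.07 ± 0.06 with shDDX41 #2) and MRTO4 (0.14 ± 0.08 with shDDX41 #1 and -0.13 ± 0.08 with shDDX41 #2), which holds the place of the ribosomal stalk protein, were called in neither comparison.

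The rest of the pathway was counted over 83 further assembly genes chosen by function. With shDDX41 #1, 37 rose and 14 fell (median log2 fold change 0.13), and with shDDX41 #2, 4 rose and 31 fell (median -0.17). Between the hairpins, 49 were higher with shDDX41 #1 and 6 lower. With shDDX41 #1, 61.4% of the 83 genes were called, against 47.8% of all genes tested. The share called lower was 16.9%, under the 24.1% of all genes. With shDDX41 #2, 42.2% were called, against 25.0% of all genes. The share called lower was 37.3%, above the 13.4% of all genes. Between the hairpins the share called was 66.3%, against 48.8%. The list was chosen with earlier results of these data known, so these shares are descriptions. The rises with the smallest adjusted p with shDDX41 #1 were those of SURF6, a nucleolar matrix protein, by 0.88 ± 0.09 (adjusted p = 1.93e-06), of POLR1D, a subunit of RNA polymerases I and III, by 0.59 ± 0.07 (adjusted p = 4.66e-06), and of RSL1D1 by 0.55 ± 0.06 (adjusted p = 6.26e-06). The falls were those of TBL3, the UTP-B subunit also called UTP13, at -0.64 ± 0.08 (adjusted p = 1.35e-05), of NOM1 at -0.52 ± 0.07 (adjusted p = 2.24e-05) and of the nuclear exonuclease XRN2 at -0.35 ± 0.07 (adjusted p = 0.000707). With shDDX41 #2, the kinase RIOK3 rose by 0.34 ± 0.07 (adjusted p = 0.00218), EIF6, which keeps the subunits apart, rose by 0.25 ± 0.06 (adjusted p = 0.0097), and NOP53 rose by 0.40 ± 0.11 (adjusted p = 0.0146). The falls with the smallest adjusted p were in TEX10 at -0.57 ± 0.07 (adjusted p = 6.60e-05) and in the RNA polymerase I subunits POLR1G at -0.52 ± 0.08 (adjusted p = 0.000187) and POLR1H at -0.60 ± 0.09 (adjusted p = 0.000227). POLR1H was at 0.39 ± 0.09 (adjusted p = 0.00166) with shDDX41 #1. The count of 35 called with shDDX41 #2 fell to 22 without sh-Control B, to 21 without shDDX41 #2 A, to 16 without shDDX41 #2 B and to 23 without shDDX41 #2 D.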

How the data were processed

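RNA-seq of poly(A)-selected libraries from 9 sorted MOLM13 samples was used, and the authors deposited whole-number counts per gene with no normalization. Submitters' processing notes name FastQC 0.11.7, HISAT2 2.0.5 and featureCounts 1.5.2, with the builds hg38 and mm10. The annotation, the strand setting and the treatment of reads with several matches are not given in the sources used here. The labels name a stranded kit and the study's methods an unstranded one, so counts of genes that overlap on opposite strands (28 members) are uncertain. The exons of 6 members overlap another gene on the same strand in GENCODE v29. Groups were taken from the labels, and 0 columns were unmapped. Whether replicates came from separate cultures is not stated in the labels, so p-values measure the spread between these libraries.

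Counts were analysed with edgeR 4.0.16 in R 4.3.3 (filterByExpr with a minimum count of 10, TMM scaling, quasi-likelihood F test, 1 fit over all 9 libraries), with Benjamini-Hochberg adjustment over the 12712 genes that passed (42.3% of 30017). A gene was called at an adjusted p under 0.05, and SE is the log2 fold change over the root of F. The biological coefficient of variation was 0.0768. In data simulated for shDDX41 #1 against sh-Control, 181 of 200 changed genes were recovered among 12576. Every planted change was larger than the median called rise of members with shDDX41 #1 (0.32 on the log2 scale). The recovery therefore does not describe changes of that size. Alternatives were DESeq2 1.42.0, 3 other scalings, 2 other filters, a threshold of 0.01, a replicate block, only the 6 libraries compared, and leaving out each library. Offsets for length and GC content, which 90.6% of genes tested and 58 of 58 members had, and the pair of opposite calls were added after the data were seen. Gene positions are from GENCODE v29 (GRCh38).

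Members and lists were chosen with earlier results of these data known. Values in every library are given for the member of each class with the smallest adjusted p in each comparison, members called in opposite directions, NCL, NPM1, MYC and DDX41. PWP2, WDR12 and BRIX1 were added after their values were seen. Of the further assembly genes, those named had the 3 smallest adjusted p in each direction against sh-Control.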

Additional observations from a re-analysis of the deposited data

Results flagged for a closer look

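Listed here are 14 genes, the 13 members and MYC, that were called above sh-Control with shDDX41 #1 and below it with shDDX41 #2 (edgeR quasi-likelihood test). Their direct differences between the hairpins also passed (adjusted p of 0.000315 or less), but the pair of calls fixed the direction of that difference, so its values are a description. Other members, such as NOB1 and NAT10, differed between the hairpins with effects on opposite sides of 0 but were called against sh-Control with 1 hairpin only. The direct log2 difference was 1.11 for MYC, 0.90 for NIP7, 0.87 for NMD3, 0.77 for IMP4, 0.73 for NOP2, 0.73 for NOP16, 0.72 for POLR1C, 0.70 for PES1, 0.67 for NLE1, 0.64 for POLR1B, 0.62 for IMP3, 0.55 for WDR43, 0.54 for UTP15 and 0.39 for PNO1. Each hairpin is 1 sequence, so these differences compare the hairpins, and the depth of DDX41 loss cannot be told apart from them.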

How the results depend on the processing

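Of the member calls, 21 of 28 with shDDX41 #1, 24 of 36 with shDDX41 #2 and 37 of 44 between the hairpins were kept in all 18 alternative fits at the same threshold, and no called member changed sign. At an adjusted p under 0.01, 18 members were called with shDDX41 #1, 6 had the pair of opposite calls, and 30 and 15 further assembly genes were called with shDDX41 #1 and shDDX41 #2. The member median moved by more than the spread between libraries to 0.16 (shDDX41 #1) and -0.24 (shDDX41 #2) with upper quartile scaling, and to -0.30 (shDDX41 #2) by library size only. Leaving out 1 library at a time, the shDDX41 #2 median ran from -0.28 to -0.25 and the further assembly genes called with shDDX41 #2 from 16 to 45. The cause of these changes was not tested. Differences near 0 that did not pass changed sign. With shDDX41 #1, WDR75 was at -0.0125 by library size only and ran from -0.0573 to 0.0464 when 1 library was left out, WDR36 from -0.029 to 0.103, LTV1 from -0.0232 to 0.0908 and NPM1 from -0.068 to 0.0924. Between the hairpins, LYAR ran from -0.0371 to 0.0634 and UTP6 from -0.0479 to 0.0496, and UTP6 was at -0.000226 with no filter and -0.00195 with only the 6 libraries compared. Correlations of deviations ran from -0.0574 to 0.243 for libraries of the same replicate letter and from -0.184 to 0.0664 for other letters. Between sh-Control and shDDX41 #1, the same letter gave 0.0725 (A), 0.158 (B) and 0.243 (D), each above every other-letter value. Same-letter pairs with shDDX41 #2 showed no such pattern, at -0.0574 to 0.0225. The main fit did not use the letters. With a replicate block, 30, 40 and 46 members were called in the 3 comparisons. PWP2, at 6.54 to 12.1 CPM, lost its shDDX41 #2 call in 4 of 18 alternative fits, BOP1 in 9 and PNO1 in 13.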

Other observations

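Ribosomal protein genes, the products of which the assembly factors build into the subunits, were counted apart from the members. Of 84 listed, 82 were tested: 74 rose and 2 fell with shDDX41 #1 (median log2 fold change 0.47), 10 rose and 1 fell with shDDX41 #2 (median 0.18), and 55 were higher and 2 lower in shDDX41 #1 than in shDDX41 #2. Of all genes tested, 47.8%, 25.0% and 48.8% were called in these 3 comparisons. With shDDX41 #2, the share of ribosomal protein genes called was 13.4%, below that of all genes, and the 10 that rose stand beside 11.6% of all genes called higher, so that count is not a result about the list. The log2 fold change with shDDX41 #2 was above 0 for 79 of the 82, called or not, and for 6131 of 12712 genes tested. Groups did not overlap for 51 of the 82, and for 43.8% of all genes. The list was counted with results of these data known, and many ribosomal protein genes have pseudogenes that can share reads. Of 17 genes for the core and assembly of snoRNPs, the particles that modify rRNA, 4 rose and 5 fell with shDDX41 #1, 1 rose and 8 fell with shDDX41 #2, and 9 were higher and 4 lower in shDDX41 #1 than in shDDX41 #2. The share of snoRNP genes called was 52.9% with each hairpin, near that of all genes with shDDX41 #1 (47.8%) and above it with shDDX41 #2 (25.0%), and 76.5% between the hairpins (48.8% of all genes).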
